A study of Mus musculus with 2 samples.

Results

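The 39 genes described here encode chaperones of the cytosol and the mitochondrion, their partner proteins (co-chaperones) and Hsf1, the transcription factor of the heat shock response. They were chosen by name from the 51826 genes of the deposited table, and all 39 were found there, each in 1 row. RNA came from mouse embryonic stem (ES) cells of the v6.5 line, with 1 library of wild-type genotype and 1 of the genotype labelled T29I, a mutation that the series title places in PRSS1. Both libraries share the labels for cell type and strain and the same extraction and library protocol. The sources used here do not say how the mutation was introduced, whether the mutant cells are 1 clone or when the cells were harvested. The comparison asks how the mutant cells differ from the wild-type cells. With 1 library per genotype there is no replicate check and no p-value, "higher" and "lower" describe these libraries, and an effect of the genotype and a difference between cultures or preparations cannot be told apart. In bulk RNA, fewer cells of a type and less RNA per cell cannot be told apart either.

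Chaperones bind unfolded or partly folded proteins and release them in cycles driven by ATP. HSP70 proteins take up exposed hydrophobic stretches, J-domain proteins bring them clients and start ATP hydrolysis, and HSP110 proteins exchange the nucleotide. HSP90 finishes the folding of kinases, steroid receptors and other regulators. Actin and tubulin are delivered by prefoldin to the ring-shaped chaperonin CCT (also called TRiC), and the mitochondrial matrix has its own HSP70 and its own chaperonin, Hspd1 with the lid Hspe1. In stressed cells Hsf1 binds heat shock elements, inverted repeats of the unit GAA, in the promoters of chaperone genes, and in unstressed cells abundant constitutive chaperones such as Hspa8 and Hsp90ab1 carry most of the load.

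Heat shock elements were looked for in the RefSeq promoter windows (GRCm38.p6, from 250 bases before to 50 bases after each start site), which were found for 30 of the 39 genes, in 39 windows. The 9 genes without a window, which could not be searched, were Hsp90aa1, Hsp90ab1, Hspa8, Hspa9, Cryab, Cct4, St13, Hsf1 and Pfdn1. A run of 3 alternating units, that is GAANNTTC followed by NNGAA, or TTCNNGAA followed by NNTTC, on either strand, was present in 0.603% of all 32851 windows and in 6 of the 39 windows of the chaperone genes, which belong to Hspd1, Hspe1, Dnajb6 and Hsph1 and hold 3 distinct runs, since windows of the same or neighbouring genes overlap. Hspd1 and Hspe1 are divergent neighbours, and their RefSeq start sites on chromosome 1 (55087932 on the minus strand and 55088148 on the plus strand) leave 215 bases between them, so 1 run of units lies in both of their windows. A further Hspd1 start site is listed at 55088243. The shorter form of 2 units, GAANNTTC or TTCNNGAA, which is also part of every longer match, was present in 15.1% of all windows and in 15 of the 39. The stretches below are shown because they hold the longer form or, in Hspa1a and Hspa1b, the shorter form upstream of the inducible HSP70 genes. Capitals mark the matched units with their spacers, and the sequences are RefSeq's, read 5′ to 3′ on the strand given.
Hspe1-Hspd1, chr1:55088053-55088082, plus strand: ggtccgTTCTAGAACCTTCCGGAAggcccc
Dnajb6, chr5:29735844-29735873, plus strand: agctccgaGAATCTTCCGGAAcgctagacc
Hsph1, chr5:149636279-149636308, minus strand: gctgcagaTTCTGGAAAGTTCtcctcagta
Hspa1a, chr17:34972157-34972276, minus strand: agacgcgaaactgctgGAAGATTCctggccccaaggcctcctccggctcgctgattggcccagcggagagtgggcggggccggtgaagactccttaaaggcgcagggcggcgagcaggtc
Hspa1b, chr17:34959239-34959358, minus strand: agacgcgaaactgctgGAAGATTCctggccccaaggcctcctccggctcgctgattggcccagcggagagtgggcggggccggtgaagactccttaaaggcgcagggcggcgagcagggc
The Hsph1 match begins at position 16, where the nearer of that gene's RefSeq start sites is position 1. The stretches of Hspa1a and Hspa1b, the inducible HSP70 genes, are identical at 119 of 120 bases. A match is a description of the letters and does not show that Hsf1 binds there.

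Levels are given in TPM, a read number corrected for the length of the gene and scaled so that every library sums to 1000000, and the wild-type value is given first. The libraries held an estimated 16910001 and 15281662 reads assigned to genes. All 39 genes were above 0 in both libraries, with 19 to 92655 estimated reads each in wild-type and 25 to 71408 in T29I. Genes in general had less TPM in the T29I library. Where the mean of both libraries reached 5 TPM (9375 genes), the median log2 ratio of T29I over wild-type was -0.90, or 1.86-fold lower, a value called the shift from here on. Ratios below are on the log2(TPM + 1) scale relative to the shift unless said otherwise, and "called" means at least 2-fold higher or lower where the mean reached 1 TPM. The ratio also follows transcript length and GC content, with Spearman's rho of -0.53 and 0.56 across 9100 protein-coding genes, so each gene's value adjusted for both, with its longest transcript unless said otherwise, is given as well. Of the 8 ES cell markers fixed for a check of the label, all 8 passed 1 TPM, with a summed level of 10189 TPM in the wild-type and 7229 TPM in the T29I library, but they did not move together. Zfp42 was at 544 and 23.3 TPM (a ratio of -3.59 from the shift), Nanog at 765 and 140.3 TPM (-1.54) and Esrrb at 313 and 77.5 TPM (-1.10), while Utf1 was at 972 and 2459 TPM (2.23). Before adjustment 3 of the 8 markers were called lower (background 22.2%) and 1, Utf1, higher (background 26.0%). After adjustment all 8 lay below 0, with 3 called lower (background 15.5%) and 0 higher (background 17.6%). Of 9 markers of feeder fibroblasts, 4 passed 1 TPM, and the 9 summed to 242 and 47.5 TPM, mostly Fn1 (233 and 26.2 TPM). Of the 4, 2 were called higher (background 26.0%) and 1, Fn1, lower (background 22.2%). Thy1 was the highest of them, at 4.57 and 17.6 TPM (2.63, and 1.44 after adjustment). In that list Lum was at 0 in both libraries, and Col1a1 was at 0.939 and 1.38 TPM. Of 4 trophoblast markers, 3 passed, and the 4 summed to 45.1 and 822 TPM. Those 3 were called higher (background 26.0%), also after adjustment (background 17.6%). They were Hand1 at 0.868 and 79.5 TPM, Krt18 at 15.4 and 353 TPM and Krt8 at 28.6 and 389 TPM. Cdx2, which did not pass, was at 0.256 and 0.402 TPM. The part of these marker differences in the values below was not tested.

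Together the 39 genes made up 2.61% of all TPM in wild-type and 1.5% in T29I, and Hsp90aa1, Hsp90ab1 and Hspd1 had the largest differences in TPM. Of the 39 genes, 32 were lower in T29I by TPM and 7 were higher. Most genes were lower too. Without subtracting the shift, all genes whose mean reached 1 TPM had a median log2 ratio of -0.84 and an upper quartile of 0.15. Relative to the shift, 22 of the 38 genes that passed 1 TPM lay above 0 and 16 below. At least 2-fold higher were 7 of 38 (18.4%), against a background of 26.0% of all 12943 genes tested, and at least 2-fold lower were 5 of 38 (13.2%), against 22.2%. Relative to the shift both shares lay below the background, and the median was 0.21 against 0.055 for all genes tested. A mean of 5 TPM was reached by 36 of the 38 chaperone genes but by only 9375 of the 12943, so the sets differ in level. The part of that in the shares was not tested. The middle 50% of the chaperone genes lay between -0.59 and 0.73, against -0.88 and 1.05 for all genes tested. As deposited, without subtracting the shift, 2 of 38 were at least 2-fold higher (background 9.97%) and 16 lower (background 45.7%). After adjustment for length and GC content 5 of 38 were higher (13.2%, background 17.6%) and 7 lower (18.4%, background 15.5%), with a median of -0.13. The lower share was then above the background. With the principal isoform in place of the longest transcript 4 of 37 were higher (background 17.3%) and 2 lower (background 13.3%), with a median of 0.031. Hspa4l, an HSP110 protein known mainly from testis, was the gene that did not pass, at 1.14 and 0.398 TPM (0.28 and, adjusted, 2.25). By TPM Hspa4l was 2.87-fold lower in the T29I library (counting interval 1.86 to 4.54). Its ratio of 0.28 became -0.38 with a pseudocount of 0.1 TPM, so that sign depends on the pseudocount. The adjusted value also rests on the pseudocount of 1 TPM, so no direction relative to the shift is read from either.

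**Figure D1:**
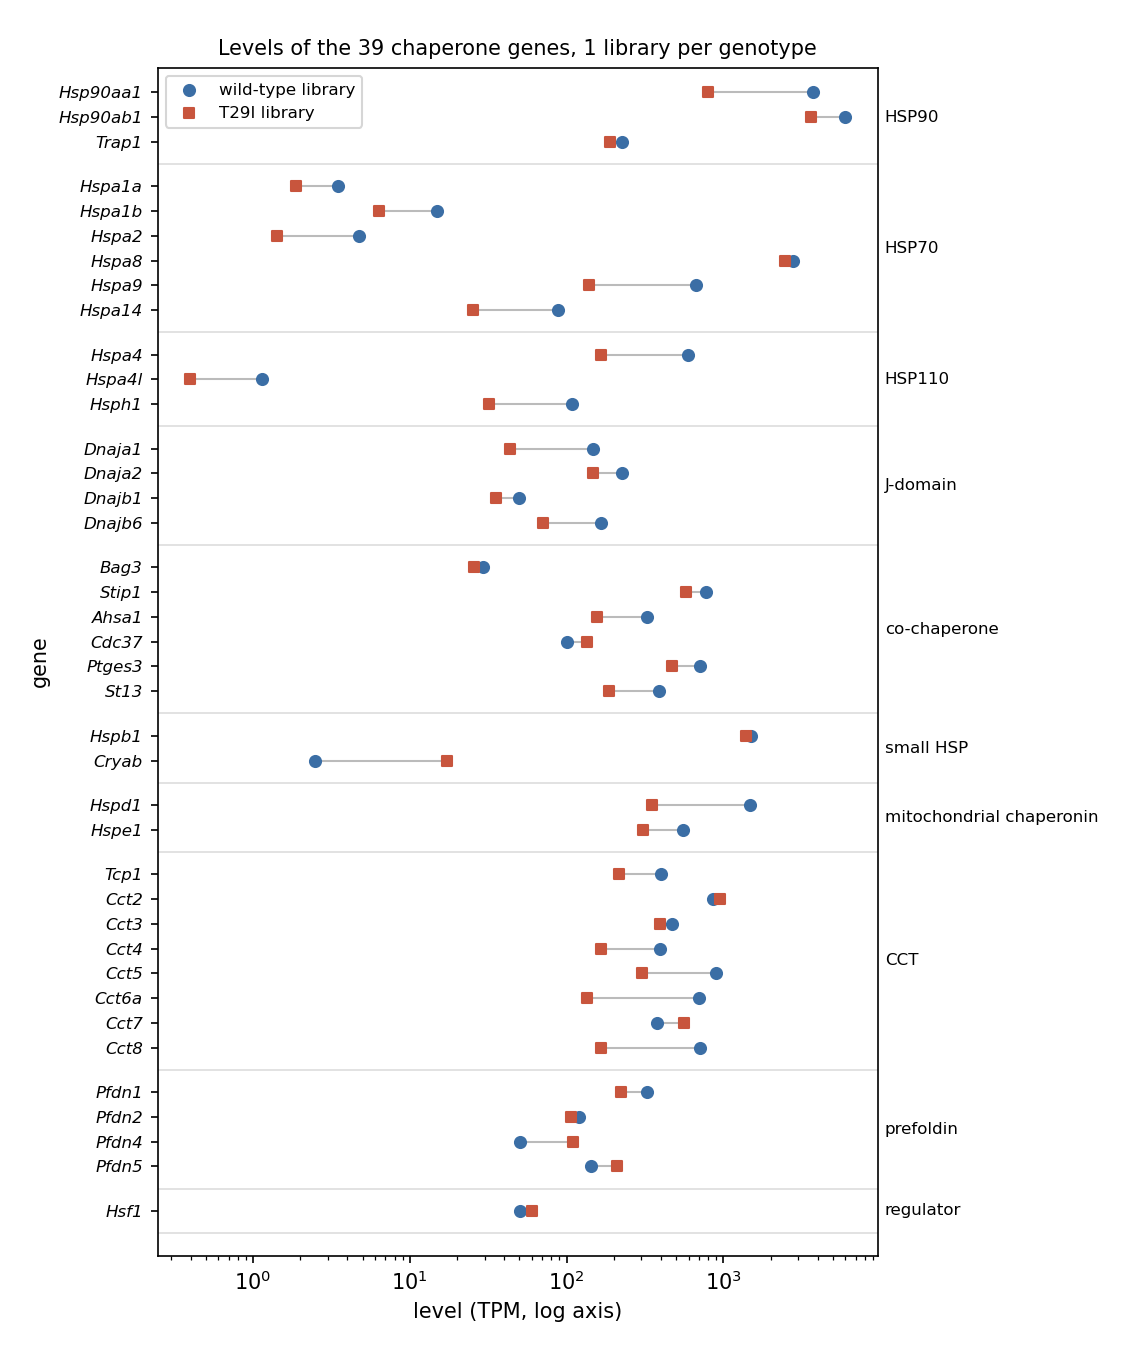
Levels of the 39 chaperone genes in TPM on a log axis, grouped by role, with the wild-type library as circles and the T29I library as squares. The T29I square lies to the left of the circle for 32 genes, and Cryab, Pfdn4, Pfdn5, Cct2, Cct7, Cdc37 and Hsf1 are the 7 exceptions. Most genes of the table whose mean reached 1 TPM were also lower in T29I by TPM.

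The cytosolic HSP90 genes were the most abundant of the set in wild-type, and the balance between the inducible and the constitutive cytosolic gene differed between the libraries. Hsp90ab1, the constitutive cytosolic HSP90, was at 5952 TPM in wild-type and 3604 TPM in T29I. It ranked 1 among the 39 genes in both libraries, and 12 and 40 among all genes. Hsp90aa1, the stress-inducible cytosolic HSP90, was at 3747 TPM in wild-type and 804 TPM in T29I, 4.66-fold lower (95% exact counting interval 4.59 to 4.73). The ratio of Hsp90aa1 to Hsp90ab1 within a library, which does not depend on the scaling between libraries but can follow length and GC content, was 0.630 in the wild-type and 0.223 in the T29I library, 2.82 times smaller in the latter. Hsp90aa1 was called lower at -1.32, while Hsp90ab1 was at 0.17. After adjustment they were at -0.81, short of 2-fold, and -0.16, which narrows the gap between them from 2.82-fold to 1.57-fold (1.58-fold with the principal isoform). Trap1, the HSP90 of mitochondria, was at 225 and 189 TPM, or 0.65 (0.13 after adjustment).

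Among the HSP70 genes, constitutive Hspa8 and mitochondrial Hspa9 held nearly all of the level, and they differed unequally between the libraries. Hspa8, which also uncoats clathrin vesicles, was at 2792 TPM in wild-type and 2485 TPM in T29I. Hspa9 (mortalin), which pulls proteins into the mitochondrial matrix, was at 665 and 139 TPM, 4.79-fold lower in the T29I library (4.63 to 4.96). Hspa9 was called lower at -1.36, and it was at -1.05 after adjustment. Its estimated reads were not whole numbers, as for Cct3, Cct5, Cct7, Stip1, Ahsa1, St13, Hsf1 and Pfdn1, so the counting intervals of these genes are approximate. The Hspa8 to Hspa9 ratio was 4.2 in wild-type and 17.9 in T29I, and 8.58 and 18.0 with the near-identical copies of Hspa8 described next, so the difference between the libraries is 4.26-fold or 2.09-fold. Hspa14, a ribosome-associated HSP70, was at 87.8 and 25.1 TPM, or -0.87 relative to the shift and -1.09 after adjustment (-0.90 with the principal isoform). It shares 321 exon bases on the same strand with the gene Gm45902, which was at 5.67 and 0.592 TPM.

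The value of Hspa8 in the wild-type library is uncertain, because a near-identical gene was as abundant there. Gm26825 (ENSMUSG00000097554) is annotated as a lincRNA of 2 exons on chromosome 5 from 5781530 to 5783636, plus strand. It matches the Hspa8 transcript at 99.6% identity over 1940 bases, which is 81.0% of that transcript. Gm26825 had 2915 TPM in wild-type, from an estimated 30661 reads, and 10.1 TPM in T29I, from an estimated 135 reads. In the wild-type library its level was above that of Hspa8 itself, and in the T29I library it was 0.406% of it. Summed, Hspa8 and 5 of its 6 near-identical copies (the other, Gm7232, was not analysed here) were at 5707 and 2495 TPM, 2.29-fold lower in the T29I library, against 1.12-fold lower for Hspa8 alone. The sum moved the log2 ratio from 0.73 to -0.30 relative to the shift, neither of them called. Hspa8 alone was at 1.05 after adjustment, past 2-fold, but at 0.52 with its principal isoform. Which of these loci gave the reads was not tested. Hsp90aa1, Hspb1, Hspd1, Dnajb6 and Pfdn5 also have copies outside the set, and those of any 1 gene held at most 12.98 TPM in a library. The copy of Hspe1, AC117239.2, was not analysed here.

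**Figure D2:**
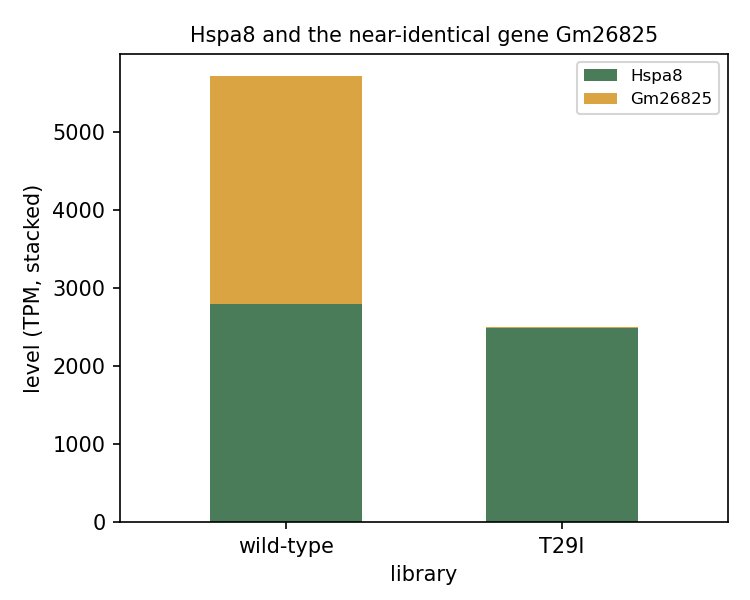
Stacked levels in TPM of Hspa8 (lower bar) and of the near-identical gene Gm26825 (upper bar) in each library. Hspa8 alone was at 2792 and 2485 TPM, while Gm26825 added 2915 TPM in wild-type and 10.1 TPM in T29I, too little to see.

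The inducible HSP70 genes were low in both libraries. Hspa1a (chromosome 17 from 34969190 to 34972156) was at 3.51 TPM in wild-type and 1.89 TPM in T29I, from 54 and 37 estimated reads. Hspa1b (chromosome 17 from 34956436 to 34959238) was at 14.8 and 6.37 TPM, from 216 and 118 reads. The transcripts of these genes are 99.2% identical over 2201 bases, so the split of reads between them is uncertain. Relative to the shift they were at 0.25 and -0.21, and neither was called, but after adjustment Hspa1a was at -0.85 and Hspa1b at -1.27, past 2-fold. Hspa2, an HSP70 of spermatogenesis, was at 4.74 and 1.43 TPM, or -0.34 (-0.95 after adjustment). These 3 genes lie in the range where the log2(TPM + 1) scale understates differences.

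The HSP110 genes were lower in the T29I library by a similar amount, and neither of those that passed was called. Hspa4 was at 592 TPM in wild-type and 166 TPM in T29I, 3.56-fold lower (3.46 to 3.67), or -0.93 relative to the shift. Hsph1, the heat-inducible member whose matched element is printed above, was at 109 and 31.8 TPM, or -0.85. Their longest transcripts have 4618 and 4764 bases, and after adjustment they were at -0.25 and -0.18.

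No J-domain gene was called relative to the shift. Dnaja1, a partner of Hspa8, was at 147 TPM in wild-type and 43.5 TPM in T29I, or -0.84 relative to the shift but 0.37 after adjustment, with a longest transcript of 5622 bases. Dnaja2 was at 224 and 146 TPM, or 0.28 (0.78 after adjustment). Dnajb1, the main J-domain protein of the heat shock response, was at 50.02 and 35.5 TPM, or 0.41 (0.073 after adjustment). Dnajb6, which holds back the aggregation of polyglutamine proteins, was at 166 and 71.1 TPM, or -0.32 (-0.49 after adjustment). Dnaja1 shares 608 exon bases with Smu1 on the opposite strand, and the sources used here do not say whether the authors' counting used strand.

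Among the co-chaperones, Cdc37 was called higher in the T29I library and the other 5 were not called. Cdc37, which loads protein kinases onto HSP90, was at 100.5 TPM in wild-type and 135 TPM in T29I, 1.35-fold higher (1.30 to 1.40), or 1.32 relative to the shift. Its longest annotated transcript, 7851 bases, sets its adjusted value of 2.50, and whether that transcript is the one expressed was not tested. Stip1 (Hop), which links HSP70 to HSP90, was at 775 and 577 TPM. Ptges3 (p23), which holds HSP90 in its closed form, was at 705 and 468 TPM. Ahsa1, the activator of the HSP90 ATPase, was at 325 and 155 TPM, and St13 (Hip), which steadies HSP70 in its ADP state, at 390.1 and 186 TPM. Stip1 and Ptges3 were thus at 0.47 and 0.30 relative to the shift, and Ahsa1 and St13 at -0.16 and -0.17. After adjustment Stip1 was at -0.057, Ptges3 at 0.52, Ahsa1 at -0.21 and St13 at 0.72, so Stip1 and St13 changed sign. Bag3, a nucleotide exchange factor of selective autophagy, was at 29.2 and 25.8 TPM, 1.13-fold lower with a counting interval of 0.986 to 1.30 that includes 1, or 0.72 (-0.18 after adjustment).

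The small heat shock proteins included the chaperone gene with the highest log2 ratio, Cryab. Hspb1 (HSP25), an ATP-independent holding chaperone, was at 1491 TPM in wild-type and 1388 TPM in T29I, and ranked 4 and 3 among the 39 genes. It was at 0.79 relative to the shift and at -1.68 after adjustment, which passes 2-fold in the other direction, so no direction holds for it. Its longest transcript has 930 bases and a GC content of 61.7%, the highest of the set. Cryab (alpha B-crystallin), known from lens and muscle, had 2.47 TPM in wild-type, from 19 estimated reads, and 17.3 TPM in T29I, from 169 reads. The T29I level was 6.99-fold higher (4.34 to 11.9), and its log2 ratio stood at 3.29 from the shift, or at 2.04 once adjusted. Cryab (chromosome 9 from 50751325 to 50756636) shares 252 exon bases on the opposite strand with Hspb2, another small heat shock protein gene, which was at 2.77 and 2.90 TPM and was named after its values were seen.

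The mitochondrial chaperonin genes share the promoter region shown above, yet their levels differed to unlike extents between the libraries. Hspd1 (HSP60, chromosome 1 from 55077835 to 55088243), which forms the folding chamber, was at 1478 TPM in wild-type and 349 TPM in T29I, 4.24-fold lower (4.12 to 4.36). Hspe1 (HSP10, chromosome 1 from 55088132 to 55091307), its lid, was at 551 and 309.6 TPM, 1.78-fold lower (1.70 to 1.86). The counting intervals of these folds do not overlap, but they cover counting error only. With 1 library per genotype the spread between libraries is unknown. The ratio of Hspe1 to Hspd1 was 0.373 in wild-type and 0.888 in T29I. Hspd1 was called lower at -1.19 and Hspe1 was at 0.067, and after adjustment they were at -1.15 and -0.12. Adjusted with the principal isoform in place of the longest transcript, they were at -0.96 and -0.74, a smaller gap. The genes overlap by 112 exon bases on opposite strands. Of the 4 mitochondrial genes of the set, Hspa9 and Hspd1 were called lower (background 22.2%), and Hspe1 and Trap1 were not called. The same 2 were past 2-fold after adjustment with the longest transcript (background 15.5%), and 0 of 4 with the principal isoform (background 13.3%).

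The CCT genes encode the 8 subunits of 1 ring, each present once, and their RNA levels were more uneven in the T29I library. In the wild-type library the 8 levels ranged from 375 TPM for Cct7 to 893 TPM for Cct5, a 2.38-fold range with a coefficient of variation of 36.0%. In the T29I library they ranged from 135 TPM for Cct6a to 950.4 TPM for Cct2, a 7.04-fold range with a coefficient of variation of 76.8%. The subunits split in direction. Cct6a was at 697 and 135 TPM, 5.16-fold lower in the T29I library (4.96 to 5.36), the largest fold in that direction among the 39 genes. Its entry is annotated as a processed transcript, unlike the rest of the set, which is annotated as protein-coding. Cct8 was at 708 and 167 TPM, or -1.18 relative to the shift, and was the other subunit called lower. Cct5 was at 893 and 302 TPM (-0.67, and -1.14 after adjustment, or -0.96 with its principal isoform). Cct4 was at 393 and 167 TPM (-0.34, and -0.14). Tcp1, the alpha subunit, was at 401 and 216 TPM (0.0036, and 0.71), and Cct3 at 468 and 392 TPM (0.64, and 0.97). Cct2 and Cct7 were called higher, at 1.03 and 1.47, so that 2 of 8 were called in each direction (backgrounds 26.0% and 22.2%). Cct2 was at 864 and 950.4 TPM, 1.10-fold higher (1.07 to 1.13), and Cct7 was at 375 and 559 TPM, 1.49-fold higher (1.46 to 1.52). Of the subunits called, Cct2 lay just past 2-fold, and it was at 0.90 after adjustment (1.09 with its principal isoform). Cct7 was at 2.07 with its longest transcript of 3884 bases and at 0.96 with its principal isoform of 2441 bases. Cct6a stayed at -1.46 after adjustment, and Cct8 was at -0.87. Each of these 3 genes shares exon bases with a gene on the opposite strand, Cct6a 452 bases with Psph (24.2 and 17.9 TPM), Cct8 192 with Usp16 (13.7 and 3.83 TPM) and Cct7 214 with Pradc1 (8.79 and 13.6 TPM).

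**Figure D3:**
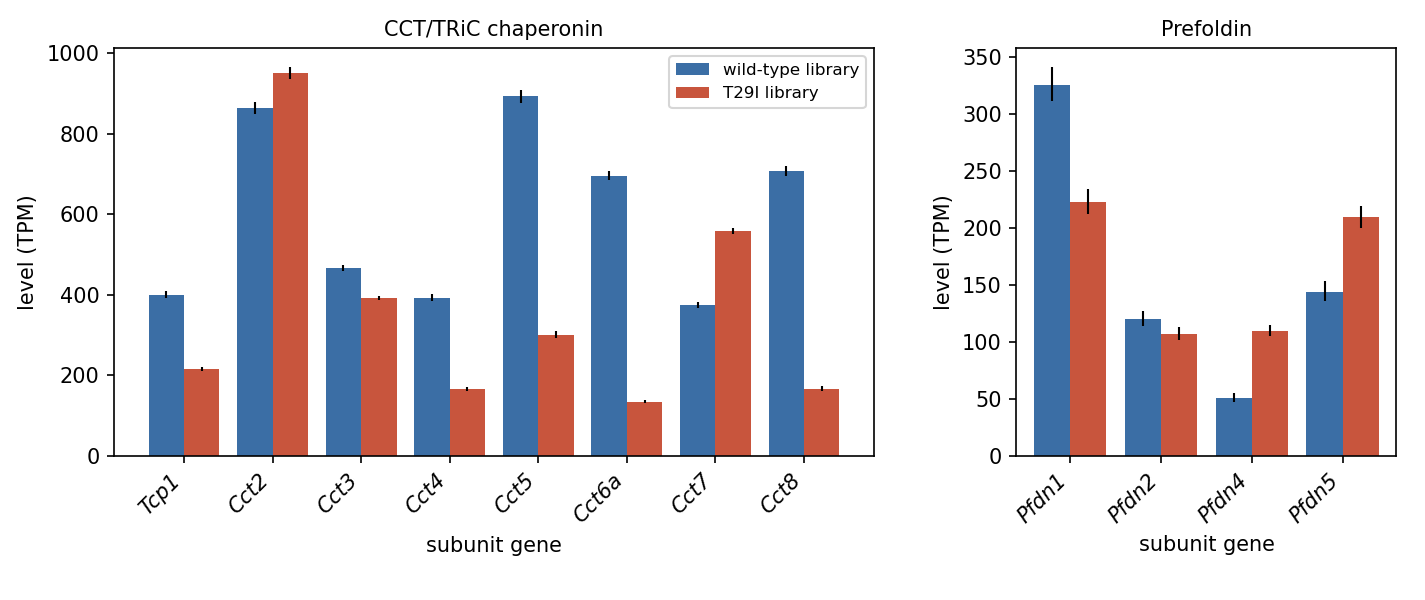
Levels in TPM of the 8 CCT subunits and the 4 prefoldin subunits, with bars for the 2 libraries and error bars for the 95% exact Poisson interval of the estimated reads, which covers counting error only. Cct2 and Cct7 stand above their wild-type bars while Cct6a and Cct8 are at 135 and 167 TPM in T29I, and Pfdn4 and Pfdn5 are higher in the T29I library.

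The 4 prefoldin genes of the set lay above 0 relative to the shift, and their sum was 641 TPM in wild-type and 649 TPM in T29I. Of the 4, 2 were called higher (background 26.0%), and 1, Pfdn4, after adjustment (background 17.6%). Pfdn4 was at 50.8 TPM in wild-type and 109.8 TPM in T29I, 2.16-fold higher (1.98 to 2.36), or 1.99 relative to the shift and 2.35 after adjustment. Pfdn5, also known as a Myc-binding protein, was at 144 and 209 TPM, or 1.43, but its adjusted value was 0.15. It shares 165 exon bases on the same strand with Myg1, which was at 47.8 and 61.8 TPM. Pfdn1 was at 326 and 223 TPM, or 0.35 but -0.44 after adjustment, and Pfdn2 was at 120.4 and 107 TPM, or 0.73 and 0.48. The range over the 4 subunits was 6.40-fold in wild-type and 2.08-fold in T29I, so the spread was narrower there, opposite to CCT. The complex has 6 subunits, and the other 2 were in the list of other pathway genes, Pfdn6 at 185 and 292 TPM and Vbp1 at 141 and 188 TPM. With them the sum was 966 and 1129.6 TPM and the range 6.40-fold and 2.73-fold.

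Hsf1, the transcription factor that drives heat-inducible chaperone genes, was at 50.2 TPM in wild-type and 59.9 TPM in T29I, 1.19-fold higher (1.13 to 1.27). It was called higher at 1.15 relative to the shift, but it was at 0.78 after adjustment with its longest transcript and at -0.018 with its principal isoform, so the call does not hold. The 8 heat-inducible chaperone genes listed for this purpose were Hspa1a, Hspa1b, Hspb1, Hsph1, Hsp90aa1, Dnajb1, Bag3 and Cryab. Relative to the shift 1 of the 8 was called higher (Cryab, background 26.0%) and 1 lower (Hsp90aa1, background 22.2%), 5 lay above 0 and 3 below, and the median was 0.33. By TPM as deposited 7 of the 8 were lower in T29I, as were most genes tested, with 3 called lower (background 45.7%) and 1 higher (background 9.97%). After adjustment 6 of 8 lay below 0 with a median of -0.49 (-0.45 with the principal isoform), 2 were called lower (Hspa1b and Hspb1, background 15.5%) and 1 higher (Cryab, background 17.6%). The direction of the list thus depends on the scaling.

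**Figure D4:**
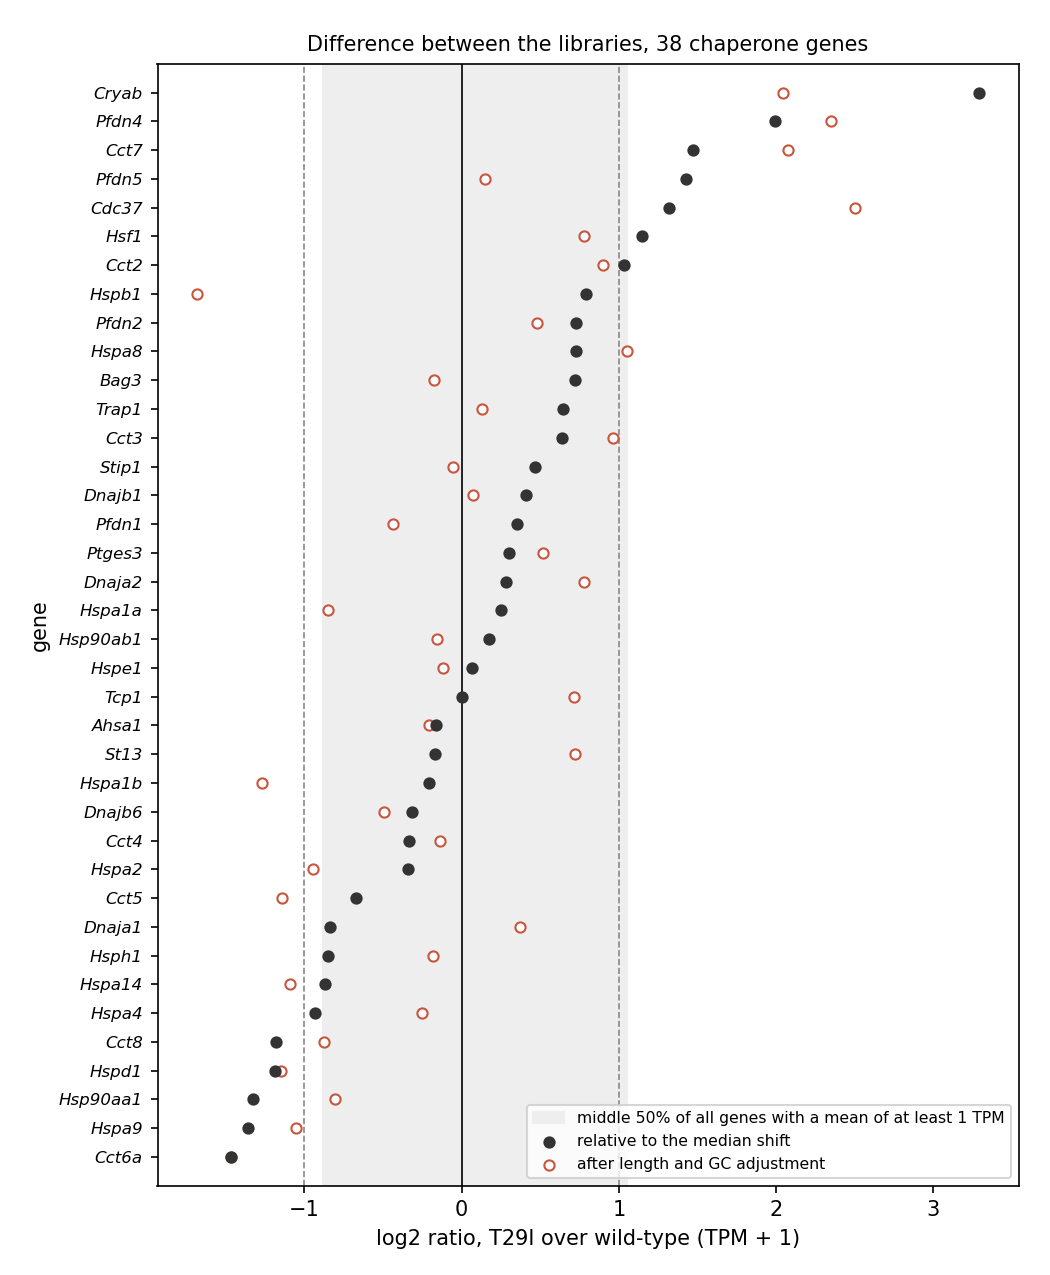
Log2 ratio of T29I over wild-type (TPM + 1) for the 38 chaperone genes whose mean reached 1 TPM, relative to the shift (filled) and after adjustment for length and GC content (open, hidden behind the filled point for Cct6a). The grey band holds the middle 50% of all genes tested and dashed lines mark 2-fold, with 7 filled points past the upper and 5 past the lower line.

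Among the chaperone genes themselves, the ratio followed transcript length and GC content less closely than across all genes, with Spearman's rho of -0.25 and 0.29 over the 38 genes. These are descriptions over genes of the same 2 libraries. The calls that held relative to the shift, with copies added and after adjustment by the longest and by the principal transcript were those of Cryab, Pfdn4 and Cdc37 (3 of the 7 higher). None of these 3 genes has a near-identical copy, so added copies could not change their calls. For Cryab and Cdc37 the longest and principal transcripts have the same length, so the adjustments are not separate checks. As deposited Cdc37 was at 0.42, short of 2-fold, while Cryab and Pfdn4 were at 2.40 and 1.10. Of the 5 lower calls 1 held, that of Cct6a, which has no annotated principal isoform, so that version could not be fitted for it. Its entry is not annotated as protein-coding, the type of gene that the adjustment was fitted to. Cct6a has no near-identical copy either. Hspa9 and Hspd1 also stayed called lower in the versions fitted for Cct6a. They fell short of 2-fold only with the principal transcript, at -0.87 and -0.96. Just inside the threshold were Cct2 at 1.03 and Hsf1 at 1.15 above, and Cct8 at -1.18 and Hspd1 at -1.19 below. Just outside were Hspa4 at -0.93, Hspa14 at -0.87, Hsph1 at -0.85 and Dnaja1 at -0.84 below, and Hspb1 at 0.79 above.

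Other genes of the chaperone pathways were taken from a list of 77, of which 73 passed 1 TPM. Of these 73 genes, 24 were called higher (32.9%, background 26.0%) and 9 called lower (12.3%, background 22.2%), with a median of 0.33. After adjustment 11 of 73 were higher (15.1%, background 17.6%) and 12 lower (16.4%, background 15.5%), with a median of -0.054, so the larger share of higher genes was not seen there. The 3 highest whose mean reached 5 TPM were Hspb8, Pam16 and Tbcc. Hspb8, the small heat shock protein that works with Bag3, was at 28.3 and 94.1 TPM, or 2.60 relative to the shift and 1.79 after adjustment. Pam16, a part of the mitochondrial import motor that regulates the J-domain protein acting on Hspa9, was at 10.6 and 20.8 TPM, or 1.81 and 1.03 after adjustment. Tbcc, a tubulin folding cofactor, was at 35.3 and 65.9 TPM, or 1.78, but at -0.52 after adjustment. The 3 lowest were Cdc37l1, Dnajc7 and Dnajc2. Cdc37l1, a relative of Cdc37, was at 76.2 and 8.54 TPM, or -2.12 relative to the shift and -1.03 after adjustment, on the opposite side from Cdc37 itself. Dnajc7, which binds both HSP70 and HSP90, was at 189 and 29.01 TPM (-1.76, and -2.15 after adjustment), and Dnajc2, a ribosome-associated partner of Hspa14, at 88.0 and 13.1 TPM (-1.76, and -1.003).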

How the data were processed

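Total RNA of mouse ES cells was sequenced in 1 wild-type and 1 T29I library, made with a stranded total RNA kit with ribosomal RNA removal, per the labels' protocols. The authors deposited 1 table of TPM values (unit taken from the values, since each column sums to 1000000). The sources used here do not name the aligner, counter, build or annotation. Columns were matched to samples by the sample descriptions and groups by the genotype labels.

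Of 51826 identifiers, 51633 were found in GENCODE M21 (GRCm38). TPM times merged exon length, divided by the value of 1 read, was whole within 0.05 for 81.0% and 79.9% of values above 0 (10% by chance) and for 30 of the 39 chaperone genes in both libraries. These estimated reads give 95% exact Poisson and exact conditional binomial intervals, which cover counting error only. For the other 9 genes the reads are approximate. No count model was fitted. TPM per merged exon length understates genes with long annotated exons.

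The log2 ratio used a pseudocount of 1 TPM and a minimum mean of 1 TPM. The adjustment takes the residual from a quadratic surface in log2 length and GC content of the longest (or APPRIS principal) transcript, fitted to protein-coding genes whose mean reached 5 TPM. This removes true differences that follow length or GC content too. Near-identical copies were annotated transcripts outside the gene's own locus with at least 95% identity over at least 150 bases and 25% of the member's transcript (blastn 2.17.0). Computation used Python 3.11.15, numpy 2.4.6, pandas 2.3.3 and scipy 1.17.1, and the calculations were tested on simulated data. All 39 genes were named by family. From the other pathway list 6 genes were named, 3 with the highest and 3 with the lowest log2 ratio where the mean reached 5 TPM. The chaperone genes and lists were chosen with earlier results of these data known. Alternatives were other scalings, pseudocounts, filters and adjustments.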

Additional observations from a re-analysis of the deposited data

How the results depend on the processing

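With 1 library per genotype no library could be left out. No paired analysis was possible because the groups share no replicates and there is no test. The counts of 7 higher and 5 lower chaperone genes stayed within 1.5 times under the shift from genes of at least 1 TPM, the longest-transcript adjustment, pseudocounts of 0.1 and 5 TPM, no filter or a minimum of 5 TPM, and added copies. The genes behind similar counts were not always the same. With the longest-transcript adjustment 11 of the 39, Hspa4l among them, fell on another side of the 2-fold threshold. As deposited the counts were 2 and 16 (backgrounds 9.97% and 45.7%). Without the 20 most abundant genes of either library they were 2 and 13, and on reads scaled to a sum of 1000000 4 and 10. No background is given for either, so those counts cannot be set against all genes. With the principal-transcript adjustment they were 4 and 2, of 37 genes (backgrounds 17.3% and 13.3%). In these settings and with the longest-transcript adjustment the median of 0.21 became -0.68, -0.54, -0.26, 0.031 and -0.13. The first 3 differ from the values relative to the shift only by a change of scale between the libraries and by what the pseudocount does to low genes, while the cause of the others was not tested. The call of Hsf1 turned to -0.018 with the principal transcript. The principal transcripts, added copies, scaled reads and the 6 prefoldin subunits were chosen after seeing the data.

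For the other pathway list the 24 higher and 9 lower genes became 2 and 29 as deposited (backgrounds 9.97% and 45.7%). They became 5 and 26 without the most abundant genes, and 12 and 20 on reads scaled to a sum of 1000000, with no background given for either. With a pseudocount of 5 TPM 4 were lower, also without a background. With the longest and principal transcripts 11 and 10 of the list were higher (backgrounds 17.6% and 17.3%). Its median of 0.33 became -0.57, -0.39, -0.12, -0.054 and 0.019 in the scalings and adjustments, in that order. In estimated reads, which are not divided by length, Hsp90aa1 to Hsp90ab1 was 0.825 in the wild-type and 0.293 in the T29I library, Hspe1 to Hspd1 0.208 and 0.496, the range over CCT subunits 1.80-fold and 7.75-fold, and that over prefoldin subunits 2.82-fold and 1.40-fold. In TPM, with all 6 prefoldin subunits, the range was 6.40-fold and 2.73-fold. The order of the libraries was the same in each. Depth limits Cryab, Hspa1a, Hspa2 and Hspa4l most, with 19, 37, 25 and 31 estimated reads in the library where each had fewest.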
